A study of Homo sapiens with 12 samples.

Results

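Focal adhesions are the sites where a cell grips the matrix on which it crawls. Integrins, receptors made of an alpha and a beta chain, bind the matrix outside the cell, and inside it talin, kindlin, vinculin, paxillin and the ILK-PINCH-parvin complex couple them to actin filaments. Alpha-actinin and filamin crosslink those filaments, cofilin severs them, and slingshot phosphatases activate cofilin. Assembly and release of such contacts accompany cell migration, which is the behavior that the experiment was set up to study with carmofur, an inhibitor of acid ceramidase.

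The 43 genes described here are a fixed list of integrins, focal adhesion adapters and kinases, and actin regulators. Each of the 43 symbols matched 1 Ensembl identifier among the 60107 in the count table. The rule itself used no expression value, but the genes were chosen with earlier results of these data known.

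Poly(A) RNA of U251 glioblastoma cells, an established human cell line, was, by the labels, counted at transcript 3′ ends in 4 groups of 3 libraries. The groups were the lines labeled U251P and U251T, each with vehicle (DMSO) or carmofur. The sources do not say what the letters P and T stand for or whether the lines were clones. All groups shared 16 h without serum, followed by 24 h in full medium (10% FBS) with vehicle or carmofur. The study's methods place vehicle or carmofur in the serum-free hours as well, whereas the labels name them only for the later ones. Total counts were 3295045 to 6350873 per library in U251P and 383633 to 2817379 in U251T. The methods describe the experiments in general as done on biological replicates, but the labels do not say that these libraries came from separate cultures. The p-values measure the spread between these libraries, which may in part be technical.

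The U251T libraries stood apart from the U251P libraries in ways that touch every value below. Genes of the mitochondrial genome held 19.5% to 26.2% of counts in U251P and 0.354% to 0.881% in U251T, whereas pseudogenes held 0.272% to 0.307% and 10.8% to 12.4%. Beta-2-microglobulin (B2M), which nearly all human cells express, had 5655 to 12332 counts per library in U251P and 1 to 7 in U251T. Of 10 glioblastoma and astrocyte markers, S100B and CHI3L1 were at 0 in all 6 U251T libraries. Both were also low in U251P, S100B with 4 to 14 counts per library and CHI3L1 with just 1 count over the libraries. FABP7 had 25 to 60 counts per library in U251P and at most 1 in U251T, and TNC 484 to 903 and 4 to 55. NES, SOX2 and EGFR had at most 7 counts in each U251T library, and VIM and CD44 were abundant in both lines. GFAP, the defining astrocyte marker, went the other way, with 0 or 1 count per library in U251P and 8 to 154 in U251T. The fibroblast list, led by collagen genes, summed to 20.2 to 25.3 CPM in U251P and 1832 to 2679 CPM in U251T, where CPM is a count scaled to a common library size, with LUM at 0 in all U251T libraries. Thus the defining markers went against the label U251T in part. Whether the U251T reads came from human U251 cells was not tested, and each fold between the lines carries that limit. Whatever sets these libraries apart cannot be told apart from the line.

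The promoters of several of these genes hold a CArG box, the 10-base element bound by serum response factor (SRF), whose cofactors are released from monomeric actin when filaments assemble. A CArG box was searched for in windows from 250 bases before to 50 bases after each RefSeq start (GRCh38.p14). It reads the same on both strands, so that 1 search covered them. Of the 43 genes, 35 had a window, and 5 of these 35 held a CArG box, in 5 of 72 windows (6.94%). Among all 35116 windows, 454 (1.29%) did. The 5 stretches are shown because many known actin genes are SRF targets, with the box in capitals and the gene's strand read 5′ to 3′. They lie at chr14:68977688-68977777 (- strand, ACTN1), chr19:1026479-1026568 (+ strand, CNN2), chrX:154374679-154374768 (- strand, FLNA), chr3:188212489-188212578 (+ strand, LPP) and chr16:31473114-31473203 (+ strand, TGFB1I1), each before the start.
ACTN1: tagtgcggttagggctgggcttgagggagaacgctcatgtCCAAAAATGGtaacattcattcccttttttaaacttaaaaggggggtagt
CNN2: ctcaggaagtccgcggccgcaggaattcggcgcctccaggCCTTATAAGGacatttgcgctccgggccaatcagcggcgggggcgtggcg
FLNA: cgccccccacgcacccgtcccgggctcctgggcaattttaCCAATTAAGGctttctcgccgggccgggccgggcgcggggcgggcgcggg
LPP: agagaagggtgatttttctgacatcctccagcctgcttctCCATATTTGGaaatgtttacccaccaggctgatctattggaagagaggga
TGFB1I1: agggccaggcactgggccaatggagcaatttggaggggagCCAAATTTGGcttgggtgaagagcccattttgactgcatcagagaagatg

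A match describes the sequence only. The 5 genes did not share a direction in the comparisons below. In vehicle libraries, CNN2 and LPP were lower in U251T than in U251P, and TGFB1I1 and ACTN1 were higher. FLNA was called higher, but its direction turned with the filter on low counts. With carmofur, LPP alone among them passed the test, in U251T, where CNN2 had too few counts to test.

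In U251P, none of the 43 genes passed the test for a change with carmofur. Of 39 genes with enough counts to test, 0 had an adjusted p-value under 0.05 in the quasi-likelihood test of edgeR with Benjamini-Hochberg adjustment, and DESeq2 also called 0. All genes tested gave the same rate (0% of 11426). At an unadjusted p-value under 0.05, 4 genes were higher with carmofur and 0 were lower, against 1.93% and 1.59% of all genes. The log2 fold change was above 0 in 28 of the 39 genes and in 49.9% of all genes, and its median was 0.08 against -0.00 for all genes. For 31 of the 39 genes, the 95% interval of the change lay within 1.5-fold in either direction.

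The genes nearest to a call in U251P were a cofilin phosphatase, a PDZ-LIM protein and a pair of zyxin- and paxillin-type adapters. SSH2, a slingshot phosphatase that activates cofilin (ENSG00000141298, chr17:29625938-29930276, GRCh38), had 17.2, 13.7 and 16.6 CPM in the vehicle libraries and 23.8, 29.8 and 22.8 CPM with carmofur. All 3 carmofur libraries lay above all 3 vehicle libraries. The log2 fold change was 0.67 (SE 0.179) (edgeR, unadjusted p-value 0.00193, adjusted p-value 0.999).

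PDLIM7, a PDZ-LIM protein on actin bundles (ENSG00000196923, chr5:177483394-177497606), had 36.2, 41.1 and 41.3 CPM with vehicle and 55.1, 56.0 and 52.9 CPM with carmofur. Again the groups did not overlap. The log2 fold change was 0.47 (SE 0.128), with an unadjusted p-value of 0.00224 in edgeR. ZYX, the stretch-sensitive adapter zyxin, had 72.6, 76.3 and 80.0 CPM with vehicle and 109.6, 88.5 and 80.9 CPM with carmofur. Its groups did not overlap, though barely, and the log2 fold change was 0.29 (SE 0.126). PXN, the adapter paxillin, had 217, 206.5 and 172 CPM with vehicle and 266, 246 and 207 CPM with carmofur. Here the groups overlapped, and the log2 fold change was 0.27 (SE 0.119).

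**Figure D1:**
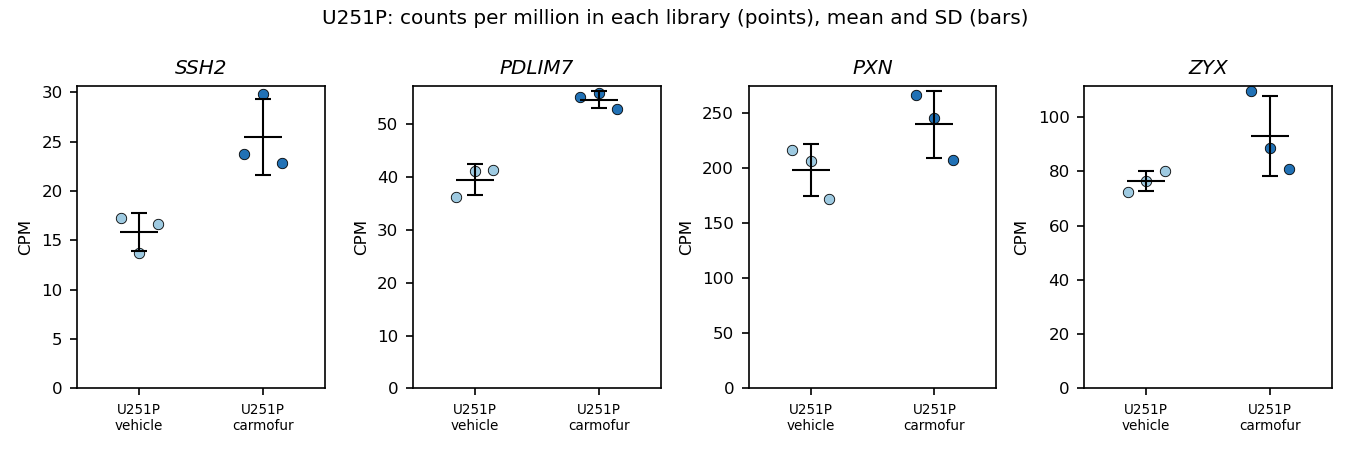
CPM of SSH2, PDLIM7, PXN and ZYX in the 6 U251P libraries, on linear axes from 0; points are libraries, the long tick is the group mean and the bars are 1 SD (n = 3). Carmofur libraries of SSH2 (22.8 to 29.8 CPM) and PDLIM7 (52.9 to 56.0 CPM) sit above the vehicle libraries, whereas those of PXN overlap them.

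The other genes with small unadjusted p-values in U251P showed shifts of at most 0.23 on the log2 scale. TLN1, or talin, which links integrin tails to actin, had 247, 269 and 276 CPM with vehicle and 226, 223 and 243 CPM with carmofur. All 3 carmofur libraries were the lower ones (log2 fold change -0.20, SE 0.0970). FERMT2, a kindlin that activates integrins together with talin, had 40.6, 42.7 and 35.8 CPM with vehicle and 48.5, 44.6 and 46.1 CPM with carmofur. Those libraries did not overlap either (log2 fold change 0.23, SE 0.133). PDLIM5, another PDZ-LIM protein, had 63.6, 59.4 and 54.9 CPM with vehicle and 70.6, 80.8 and 55.6 CPM with carmofur. TRIP6, a zyxin relative, had 95.8, 74.4 and 76.0 CPM with vehicle and 103, 93.1 and 86.0 CPM with carmofur. In both of them the groups overlapped. Over the 39 genes, 5 did not overlap with carmofur higher and 2 did not overlap with carmofur lower, where all genes gave 4.01% and 4.32%.

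By role, no group in U251P held a called gene, and the integrins were the nearest to 0. Among the 8 integrin chains tested, ITGB1, ITGB5, ITGA2, ITGA3, ITGA5, ITGA6 and ITGAV had log2 fold changes from -0.09 to 0.08. ITGA7 had a value of 0.62 with an SE of 0.409, where the vehicle libraries held 8, 14 and 33 counts and the carmofur libraries 36, 30 and 33. Focal adhesion kinase (PTK2) had a log2 fold change of -0.06 (SE 0.111) and SRC one of -0.19 (SE 0.351). All 5 genes grouped as alpha-actinins, filamin and PDZ-LIM proteins were above 0, from 0.08 for ACTN1 to the 0.47 of PDLIM7, without a call. ILK, PARVA and LIMS1 of the ILK complex and the kindlin FERMT2 ranged from 0.13 to 0.23.

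In U251T, carmofur raised 5 genes and lowered none. They were the integrin chains ITGAV and ITGA3, the adapters TLN1 and LPP, and the PDZ-LIM protein PDLIM5, with log2 fold changes from 0.65 to 1.39. This is 5 of 29 genes tested, or 17.2% higher and 0% lower, where edgeR called 8.88% of all 7204 genes higher and 8.2% lower (adjusted p-value under 0.05, Benjamini-Hochberg). Values above 0 were seen in 22 of the 29 genes and in 51% of all genes. The median log2 fold change was 0.24 for the 29 genes and 0.01 for all genes. Since the genes were chosen with earlier results of these data known, these contrasts with all genes are only descriptive. In such bulk libraries, more cells of a kind and more RNA per cell cannot be told apart.

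ITGAV, the alpha chain of the vitronectin receptors (ENSG00000138448, chr2:186590065-186680901, + strand), had 25.6, 29.3 and 41.4 CPM in the vehicle libraries and 78.7, 76.3 and 78.2 CPM with carmofur. These CPM rest on 35, 78 and 29 counts and on 84, 86 and 36 counts. The lowest carmofur library was well above the highest vehicle library. The log2 fold change was 1.39 (SE 0.246, edgeR adjusted p-value 0.000641). ITGA3, the alpha chain of a laminin receptor (ENSG00000005884, chr17:50055968-50090481, + strand), had 46.0, 39.0 and 27.1 CPM with vehicle and 60.9, 87.0 and 76.0 CPM with carmofur. The groups did not overlap, and the log2 fold change was 1.02 (SE 0.228, adjusted p-value 0.00416).

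TLN1 (ENSG00000137076, chr9:35696948-35732395, - strand) was the most deeply counted of the 5, with 197 to 959 counts per library. It had 309.6, 359.8 and 281 CPM with vehicle and 485.5, 509 and 443 CPM with carmofur. All 3 carmofur libraries were higher, and the log2 fold change was 0.65 (SE 0.126, edgeR adjusted p-value 0.00145). PDLIM5 (ENSG00000163110, chr4:94451857-94668227, + strand) had 110.2, 122 and 116 CPM with vehicle and 174, 219 and 189 CPM with carmofur. The vehicle libraries lay close together, and the log2 fold change was 0.80 (SE 0.160, adjusted p-value 0.00175).

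LPP, a zyxin-family adapter whose promoter stretch is printed above (ENSG00000145012, chr3:188153284-188890671, + strand), had 24.1, 11.6 and 32.8 CPM with vehicle and 45.9, 38.2 and 43.4 CPM with carmofur. The log2 fold change was 1.09 (SE 0.355, edgeR adjusted p-value 0.0422). This call was the least firm of the 5. It was not made by DESeq2 (adjusted p-value 0.328), nor by edgeR without U251T vehicle replicate 1 (0.0752), vehicle replicate 2 (0.211), carmofur replicate 1 (0.145) or carmofur replicate 3 (0.117), and without vehicle replicate 2 its log2 fold change was 0.59.

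**Figure D2:**
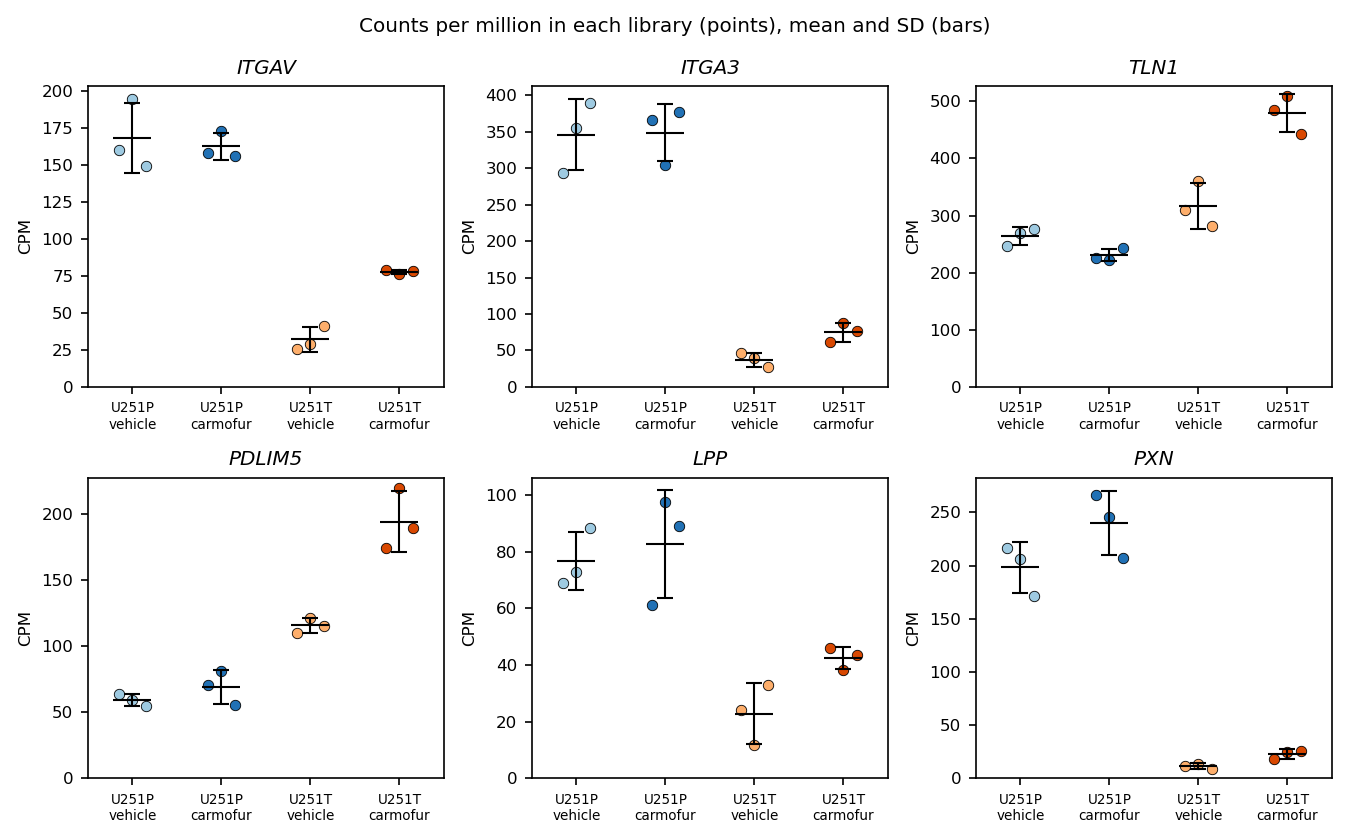
CPM of the 5 genes that rose with carmofur in U251T (ITGAV, ITGA3, TLN1, PDLIM5, LPP) and of PXN in all 12 libraries, on linear axes from 0; points are libraries, the long tick is the group mean and the bars are 1 SD (n = 3). In U251T the carmofur points lie above the vehicle points in every panel, and in U251P the groups overlap in every panel except TLN1.

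PXN stood just outside the threshold in U251T, with 11.7, 13.9 and 8.56 CPM with vehicle and 17.8, 24.9 and 26.1 CPM with carmofur. The groups did not overlap, but they rest on 6 to 37 counts per library (log2 fold change 0.98, SE 0.344, edgeR adjusted p-value 0.0590). FLNA, filamin A, was next (log2 fold change 0.35, SE 0.130, adjusted p-value 0.0730). Fold changes of the tropomyosins TPM1 and TPM2, which coat actin filaments, were 0.37 and 0.38 on the log2 scale (adjusted p-values 0.209 and 0.180).

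Among the remaining U251T genes, FERMT2, ILK and vinculin had intervals within 1.5-fold. FERMT2 had 493.6, 496 and 394 CPM with vehicle and 470.5, 463 and 399.6 CPM with carmofur (log2 fold change 0.00, 95% interval -0.26 to 0.26). ILK had a log2 fold change of 0.09 with an interval from -0.26 to 0.43, and vinculin (VCL) one of 0.08 with an interval from -0.25 to 0.41. The alpha-actinins ACTN1 and ACTN4 were at -0.22 and -0.28, with adjusted p-values of 0.377 and 0.308 in edgeR. SSH2 had 57.0, 48.4 and 55.6 CPM with vehicle and 75.9, 55.9 and 60.8 CPM with carmofur, and PDLIM7 had 52.6, 71.3 and 37.1 CPM against 41.2, 52.4 and 39.1 CPM. Neither passed the test. The intervals of 6 of the 29 genes lay within 1.5-fold, so that for the other genes the interval reached beyond a change of that size in at least 1 direction. The other 14 of the 43 genes had too few counts to test, among them ZYX, ITGB5, TNS3 and CNN2.

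Features of the U251T libraries moved with treatment as well. Nuclear copies of mitochondrial genes held 1.95% to 2.1% of counts with vehicle and 2.53% to 3.08% with carmofur, total counts were 566061 to 2817379 and 383633 to 1078340, and the glioblastoma and astrocyte list summed to 11380 to 13470 CPM and 7172 to 8986 CPM. Most of that list sum was VIM, at 10837 to 12853 CPM with vehicle and 6472 to 8195 CPM with carmofur. GFAP was also lower, whereas CD44 was at 466 to 664 CPM with vehicle and 660 to 732 CPM with carmofur. The part of these library features in the results was not tested beyond 1 measurement. With all pseudogenes and mitochondrial genes left out before normalization, an alternative chosen after the data were seen, the same 5 genes were called.

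**Figure D3:**
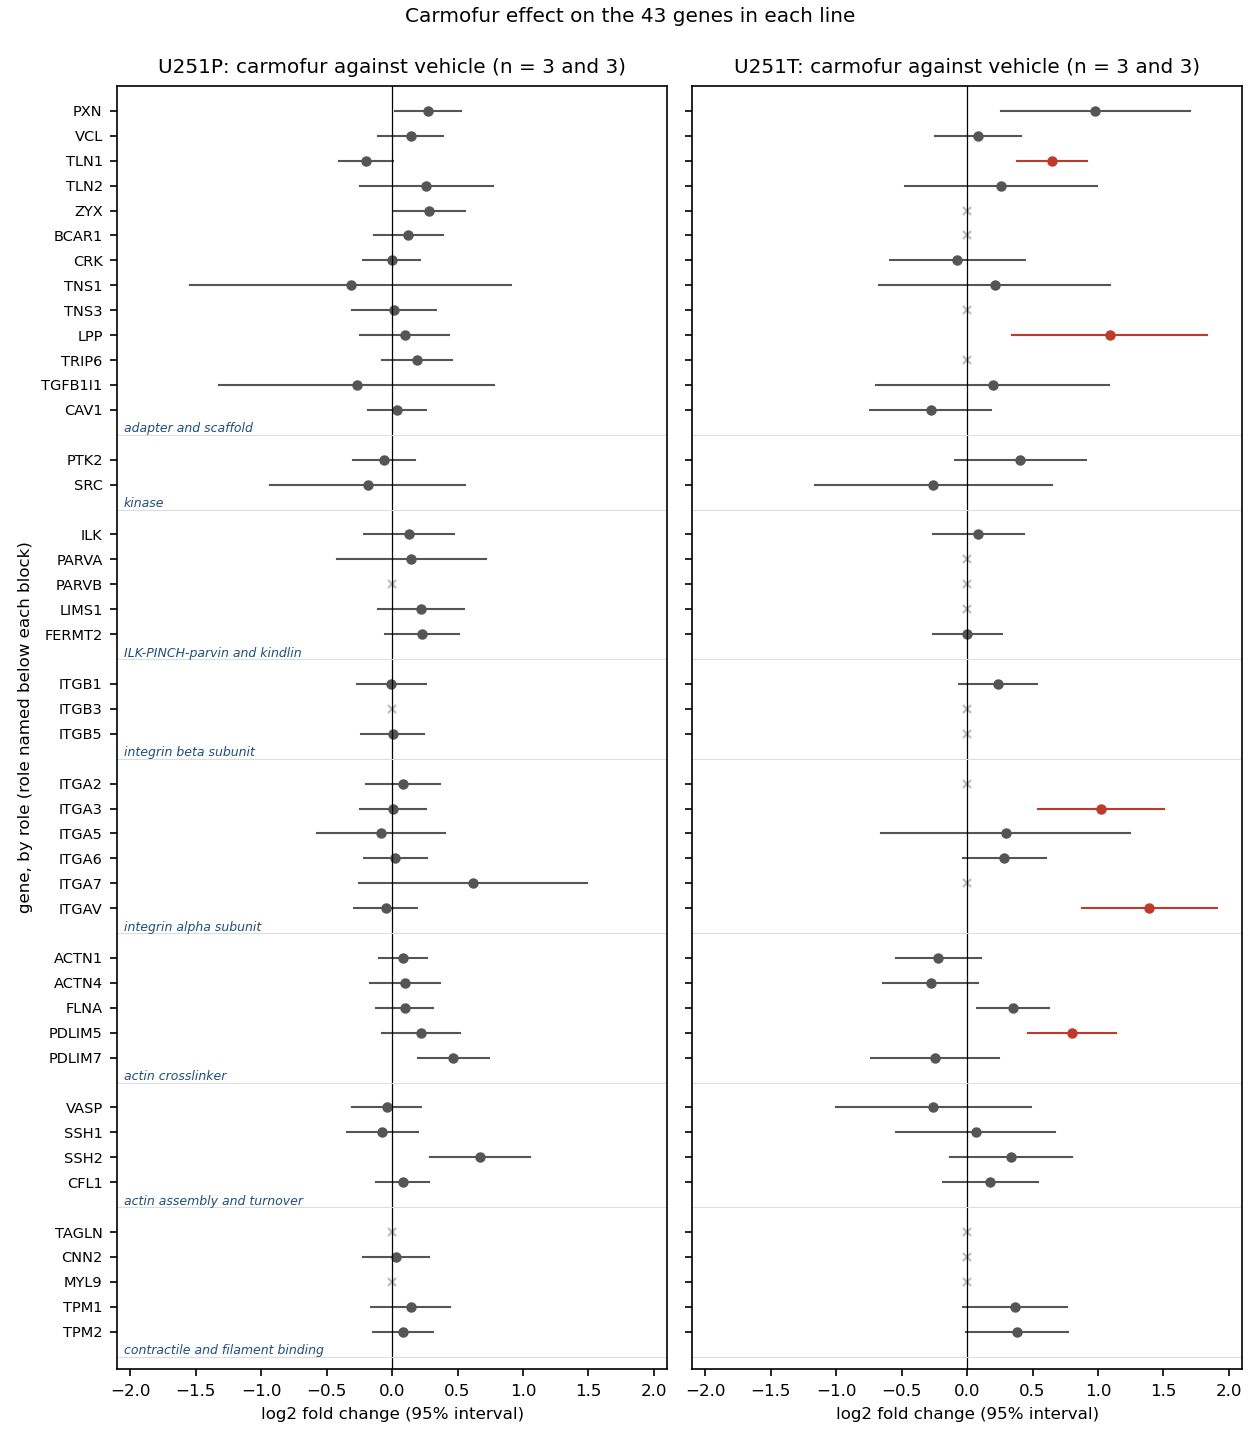
Log2 fold change of carmofur against vehicle for each of the 43 genes, grouped by role, in U251P (left) and U251T (right); points are edgeR estimates, lines are 95% intervals, red marks an adjusted p-value under 0.05 and gray crosses are genes with too few counts to test. No gene is red in U251P, and 5 are red in U251T, all to the right of 0, where intervals are also wider.

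The difference between the lines in the carmofur effect was tested directly, as an interaction over all 12 libraries. It was called for 3 of 39 genes, all more positive in U251T, where edgeR called 1.8% of 13070 genes in this direction and 2.49% in the other. The 39 include genes with too few counts to test in U251T alone. Among them is ITGA2, with 0 counts in that line, where no effect could be measured. ITGAV had an effect of -0.05 on the log2 scale in U251P and 1.39 in U251T, and the difference in the joint fit was 1.39 (SE 0.259, edgeR adjusted p-value 0.000536). TLN1 differed by 0.79 (SE 0.212, adjusted p-value 0.0235), with its CPM lower in U251P and higher in U251T. ITGA3 differed by 0.93 (SE 0.270, adjusted p-value 0.0392), from 293, 355 and 389 CPM with vehicle and 366, 304 and 377 CPM with carmofur in U251P. ITGAV was called with each library left out. TLN1 and ITGA3 both lost the call, so that 1 gene was left, when any one of U251P vehicle replicates 2 and 3, U251P carmofur replicates 1 and 2 and U251T carmofur replicate 2 was omitted. TLN1 also lost it without U251T vehicle replicate 1 or carmofur replicate 1, and ITGA3 without U251T vehicle replicate 2 or 3 or carmofur replicate 3. Over all omissions, the adjusted p-value ranged from 0.0038 to 0.0811 for TLN1 and from 0.0276 to 0.181 for ITGA3 (edgeR).

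The difference was not called for PDLIM5 (0.52, SE 0.233, edgeR adjusted p-value 0.258), LPP (0.99, SE 0.353, adjusted p-value 0.118) or PXN (0.59, SE 0.334, adjusted p-value 0.427). A rise that passed the threshold in U251T alone is thus not shown to differ between the lines for PDLIM5, nor for LPP, whose difference was called only with a replicate block or without U251T vehicle replicate 3 among the alternatives run. For PDLIM7 the point estimates had opposite signs, and the difference was -0.80 (SE 0.284, adjusted p-value 0.117), called with at least 10 counts in every library and without U251T vehicle replicate 3.

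Without drug, the lines differed far more than carmofur changed either. Between the vehicle libraries, 32 of 38 genes tested differed (84.2%), 14 higher and 18 lower in U251T. All genes gave nearly the same rates, 86.9% called, 39.3% higher and 47.6% lower (edgeR, adjusted p-value under 0.05), so that the counts describe the libraries rather than these genes. The median log2 fold change was -0.43 over the 38 genes, the same with the 2 genes at 0 in the U251T vehicle libraries set at their bound, and -0.33 over all genes. Over the 39 genes that could be tested with a library left out, the median was -0.77 without U251T vehicle replicate 2 and -0.71 without replicate 3. With no filter it was -0.74 over all 43 genes, against -1.54 for all genes, and with at least 10 counts in every library it was -0.49 over 24 genes, against 0.01 for all genes. Whether the members lay below or above all genes thus turned with the filter. The median of all genes was -0.45 with RLE normalization and -0.95 without pseudogenes and mitochondrial genes. The split of calls also depended on the filter, with 10 higher and 23 lower when no filter was used, and 7 higher and 14 lower with at least 10 counts in every library. Without U251T vehicle replicate 2, 9 were higher and 19 lower.

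Integrin chains differed in both directions, and ITGA2 and ITGB3 had 0 counts in all 6 U251T libraries. ITGA2, the alpha chain of a collagen receptor, had 301, 233 and 355 counts in the U251P vehicle libraries and none in U251T. Taking 3 counts over the 3 U251T vehicle libraries as the limit that a count of 0 allows, it was at least 113-fold lower there. ITGB5, a beta chain that pairs with alpha-V, had 94.3, 107.6 and 105.7 CPM in U251P and 2.92, 1.13 and 1.43 CPM in U251T (4, 3 and 1 counts). No library came near the other line (log2 fold change -5.75, SE 0.314, edgeR adjusted p-value 2.98e-16).

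ITGA3 and ITGAV, which rose with carmofur in U251T, were both lower there to begin with (log2 fold changes -3.01, SE 0.176, and -2.30, SE 0.190). With carmofur they stayed under the U251P level, at a mean of 74.6 ± 13.1 CPM against 346 ± 48.6 for ITGA3 and 77.8 ± 1.26 CPM against 168 ± 23.8 for ITGAV in U251P vehicle (SD, n = 3). ITGA6, the alpha chain of the other main laminin receptors, was the exception, with 159.8, 185 and 184 CPM in U251P and 560.0, 748 and 502 CPM in U251T (log2 fold change 1.95, SE 0.145). The shared beta chain ITGB1 did not pass the test, at 184 ± 8.59 and 192 ± 8.42 CPM (log2 fold change 0.23, 95% interval -0.05 to 0.51, edgeR adjusted p-value 0.116). With at least 10 counts in every library, ITGB1 was instead called lower in U251T. ITGB3 had 16 counts over the U251P vehicle libraries and 0 in U251T, a bound of at least 2.03-fold lower.

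Genes of the kindlin and ILK arm did not share a direction either. FERMT2 had 40.6, 42.7 and 35.8 CPM in U251P vehicle libraries and 493.6, 496 and 394 CPM in U251T (log2 fold change 3.72, SE 0.149, edgeR adjusted p-value 2.27e-19). ILK, the pseudokinase at the center of the complex, had 23.4, 24.5 and 22.1 CPM in U251P and 246, 297 and 153 CPM in U251T (log2 fold change 3.50, SE 0.174). In contrast, LIMS1, the PINCH protein of the same complex, was lower in U251T (log2 fold change -3.76, SE 0.237), and PARVA did not pass the test (-0.38, SE 0.412). PARVB, the second parvin, had 0, 1 and 1 counts in U251P with vehicle and 0 in each with carmofur, and 3, 2 and 0 counts in U251T with vehicle and 1, 1 and 0 with carmofur, too few to test. The ratio of U251T to U251P in vehicle was 6.58, with an exact 95% counting interval from 1.08 to 69.1 that covers counting error alone.

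All 13 adapters and scaffolds differed, 9 of them lower in U251T, where 86.9% of all genes differed and 47.6% were lower. TNS3, a tensin, had 198, 199 and 259 counts in U251P and 0 in the 3 U251T vehicle libraries, at least 83.1-fold lower by the same limit, and 1, 0 and 2 counts with carmofur. ZYX had 72.6, 76.3 and 80.0 CPM in U251P and 2.19, 2.63 and 1.43 CPM in U251T (log2 fold change -4.90, SE 0.307). PXN fell from 217, 206.5 and 172 CPM to 11.7, 13.9 and 8.56 CPM (log2 fold change -3.88, SE 0.199). TRIP6, BCAR1, LPP, CRK, CAV1 and VCL were also lower, with log2 fold changes from -3.48 to -0.66.

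The 4 adapters higher in U251T included a second tensin. TNS1 had 2.98, 0.326 and 2.55 CPM in U251P and 17.5, 9.38 and 27.1 CPM in U251T (log2 fold change 3.05, SE 0.487, edgeR adjusted p-value 1.32e-06), the reverse of TNS3. TGFB1I1, the paxillin relative Hic-5, had 3.83, 1.31 and 2.77 CPM in U251P and 9.49, 13.9 and 5.70 CPM in U251T (log2 fold change 2.07, SE 0.415), the reverse of PXN. The talins TLN1 and TLN2 were higher by 0.44 (SE 0.135) and 0.81 (SE 0.291) on the log2 scale. With at least 10 counts required in every library, TLN1 turned to -0.20 (adjusted p-value 0.137), and its call was also lost with no filter, in a single fit of all 12 libraries and without U251P vehicle replicate 1 or 3 or U251T vehicle replicate 1 or 2. FLNA, called higher at 0.32 (SE 0.145), turned to -0.04 without a filter and to -0.31 with that stricter one, which called it lower (adjusted p-value 0.0452). FLNA was not called with any of the 6 vehicle libraries left out, nor with DESeq2, upper-quartile or RLE normalization, a replicate block, a single fit of all 12 libraries or without pseudogenes and mitochondrial genes.

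Actin regulators split in the same manner within families. ACTN1 was higher and ACTN4 lower in U251T (log2 fold changes 1.22, SE 0.157, and -1.73, SE 0.164). SSH2 had 17.2, 13.7 and 16.6 CPM in U251P and 57.0, 48.4 and 55.6 CPM in U251T (1.89, SE 0.226), whereas its relative SSH1 and cofilin (CFL1) did not pass the test, at 0.05 (SE 0.205) and -0.03 (SE 0.148). CNN2, a calponin, had 76.2, 70.8 and 84.7 CPM in U251P and 2.92, 0.750 and 0 CPM in U251T, from 4, 2 and 0 counts (-5.76, SE 0.375). TPM1 was higher (1.28, SE 0.164), and TPM2 did not pass the test. VASP, PTK2 and SRC had log2 fold changes of -1.70, -1.79 and 1.22, all called, although libraries of SRC overlapped. PDLIM5 and PDLIM7 were both higher in U251T, by 1.13 and 0.66. The calls of PDLIM7, TLN2 and SRC were lost with DESeq2 and without U251T vehicle replicate 2. With at least 10 counts in every library, ITGB1, ITGA5, SSH1, CFL1 and TPM2 were called lower in U251T. ITGB1 and SSH1 thereby changed direction. TAGLN and MYL9, markers of contractile cells, had at most 9 counts over the vehicle libraries of either line.

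**Figure D4:**
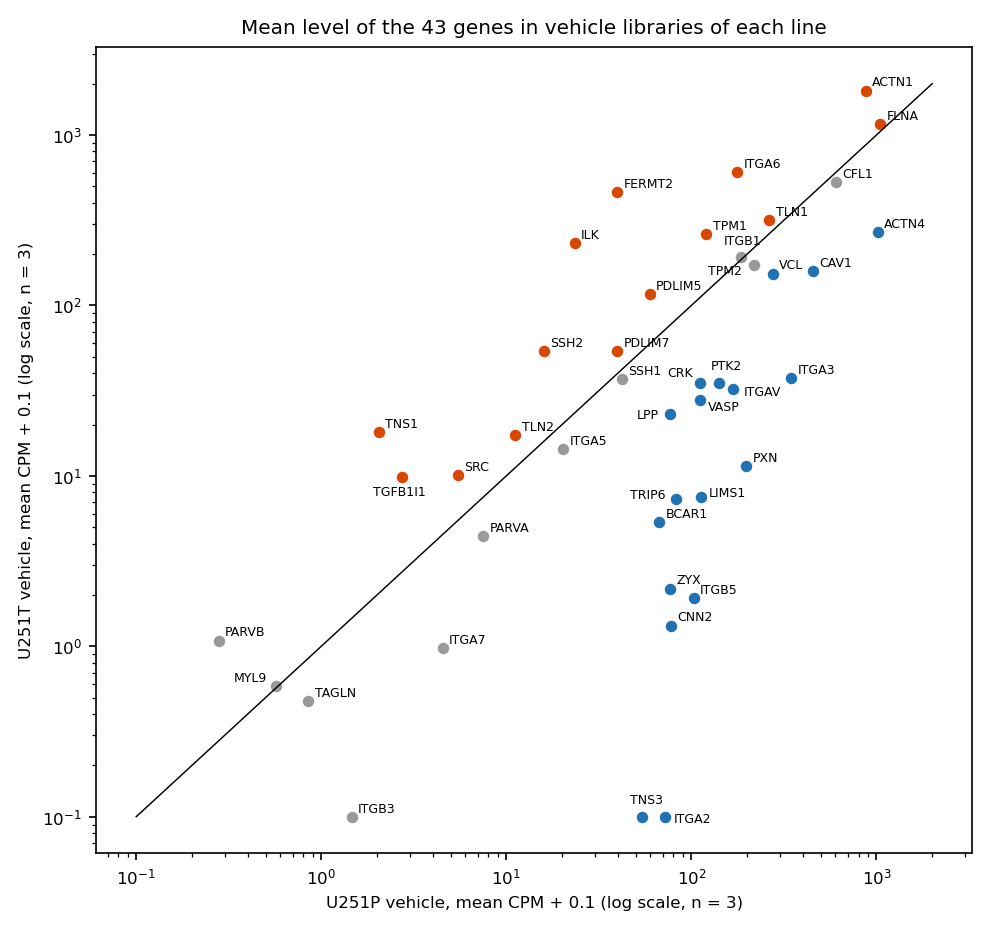
Mean CPM plus 0.1 of the 43 genes in U251P vehicle libraries (horizontal) and U251T vehicle libraries (vertical), both on log scales (n = 3 each); orange genes were called higher and blue genes lower in U251T, gray genes were not called or not tested, and the line marks equal levels. FERMT2 and ILK lie farthest above the line among the abundant genes, and ITGA2 and TNS3 sit at the bottom edge because they had 0 counts in U251T.

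A second list of 93 focal adhesion and actin genes outside the 43 also held no called gene in U251P, with 0 of 84 tested. At an unadjusted p-value under 0.05, 1 was higher and 1 was lower. The log2 fold change was above 0 in 41 of the 84, with a median of -0.00. The smallest unadjusted p-values belonged to FHL1 (log2 fold change -0.64, SE 0.248), KANK2 (0.35, SE 0.135), GSN (-0.50, SE 0.245), SRF (0.35, SE 0.171) and ROCK1 (-0.19, SE 0.0987). In edgeR all of them had an adjusted p-value of 0.999.

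In U251T, 16 of 70 tested genes of that list were higher with carmofur and 2 were lower (22.9% and 2.86%), against 8.88% and 8.2% of all genes. The list was chosen with earlier results of these data known, so that this contrast is only descriptive. FHL1, a LIM-domain protein, went from 5.11, 6.003 and 4.28 CPM to 39.4, 63.0 and 23.9 CPM (log2 fold change 3.09, SE 0.373, edgeR adjusted p-value 1.78e-05). DIAPH3, a formin that extends actin filaments, went from 251.2, 257 and 204 CPM to 100.3, 123.4 and 89.1 CPM (-1.12, SE 0.154, adjusted p-value 6.06e-05). CCN2, a matrix protein and YAP target, TMSB10, an actin monomer binder, and ARPC1B, an Arp2/3 subunit, rose by 1.20, 0.61 and 0.94 on the log2 scale. These 5 genes, named for their small p-values, had groups that did not overlap. Of all genes in U251T, 16.2% did not overlap with carmofur higher and 16.7% with carmofur lower.

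Between the vehicle libraries, 78 of 89 genes of the list differed, 35 higher and 43 lower in U251T (87.6%, against 86.9% of all genes). FHL2, CAV2 and ITGA4 had 1477, 811 and 286 counts over the U251P libraries and 0 in U251T, at least 187-fold, 103-fold and 36.2-fold lower. CSRP1 had 1057 counts against 1, a ratio of U251T to U251P of 0.00249 (exact 95% counting interval 6.3e-05 to 0.0139). FLNC had 0 counts in U251P and 78 in U251T, at least 68.4-fold higher. ITGA1, MYH10 and ACTA2 were higher by 6.23, 5.97 and 4.55 on the log2 scale, from 15, 14 and 20 counts over the U251P vehicle libraries.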

How the data were processed

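The authors prepared libraries from total RNA with Lexogen's QuantSeq kit for transcript 3′ ends, read 75 bases from a single end on a NextSeq instrument and processed the reads with Lexogen's BlueBee pipeline. The submitters' processing notes name hg38, and the annotation, the counter and its use of strand are not given in the sources used here. The deposited table holds raw counts per Ensembl gene, used as deposited. Because counts come from 3′ ends, they do not scale with transcript length. Symbols and positions came from GENCODE v29 and promoters from RefSeq. Of the 43 genes, 15 overlap another gene on the same strand and 34 one on the other strand, whose reads may be shared.

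Each comparison was fitted over all genes with edgeR 4.0.16 in R 4.3.3 (filterByExpr, TMM, glmQLFit, glmQLFTest, Benjamini-Hochberg, threshold 0.05). SEs are the log2 fold change divided by the root of F. CPM values use TMM factors over all 12 libraries, so they can differ slightly from the fitted fold changes. A group at 0 was given a floor of 3 counts over its 3 libraries. Exact counting intervals and floors cover counting error only, whereas intervals of fold changes come from the fitted SEs and include the spread between libraries. Alternatives were DESeq2 1.42.0, upper-quartile and RLE normalization, no filter, at least 10 counts in every library, a replicate block, all 12 libraries in a single fit, an adjusted p-value under 0.1 and each library left out. Scripts were tested on simulated data.

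Per-library values are given for genes called with carmofur or in the interaction, the 8 and 6 smallest p-values in U251P and U251T, the 6 largest called changes between lines in each direction, and genes under 10 counts in total. From the second list, the 5 smallest p-values per line and the 4 largest changes in each direction are named. The genes and lists were chosen with earlier results of these data known.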

Additional observations from a re-analysis of the deposited data

Results flagged for a closer look

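Among the genes named by rule for a carmofur comparison or the interaction, the test of the interaction between line and treatment called 7. It called 4.28% of all 13070 genes, and 6 of 89 tested genes of the whole second list. The carmofur effect in U251T minus that in U251P is given on the log2 scale (edgeR, Benjamini-Hochberg). Among the 43 genes these were ITGAV (1.39, adjusted p-value 0.000536), TLN1 (0.79, adjusted p-value 0.0235) and ITGA3 (0.93, adjusted p-value 0.0392). From the second list they were FHL1 (3.66, adjusted p-value 9.9e-07), DIAPH3 (-1.23, adjusted p-value 0.000730), CCN2 (1.07, adjusted p-value 0.0127) and ARPC1B (0.80, adjusted p-value 0.0449).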

How the results depend on the processing

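In U251P, 0 of the 43 genes were called under every alternative. In U251T, 5 were called, and ITGAV, ITGA3, TLN1 and PDLIM5 kept the call under each alternative and each library left out. Calls numbered 4 to 6 with a library left out, 4 with DESeq2 and 7 at an adjusted p-value under 0.1. With a replicate block, 11 of 29 genes tested were called, 10 higher and 1 lower, among them PXN (edgeR adjusted p-value 0.0302). The block called 28.8% of all genes in U251T. Whether replicate numbers pair the libraries is not stated, and the correlations did not settle it. Deviations of differently numbered libraries correlated at -0.3 to 0.0912 in U251P, at -0.189 to 0.106 in U251T and at -0.0513 to 0.0391 between lines. Deviations of same-numbered libraries correlated at 0.23, -0.027 and 0.287 in U251P, at 0.0844, 0.338 and 0.0805 in U251T and at -0.0376, 0.0132 and 0.031 between lines, and not every library correlated best with its own number. The block gave 31 calls between lines, where it called 85.2% of all genes, and 4 in the interaction, where it called 6.06%. Between lines, 32 calls became 28 to 32 with a library left out. With at least 10 counts in every library, 21 of the 24 genes that could be tested were called, against 77.5% of all genes. The 12 genes named between lines with library values kept direction and call in every alternative that tested them. In the interaction, 3 calls became 1 to 4 with a library left out. ARPC1B lost its interaction call without each of 10 libraries, and CCN2 without U251P vehicle replicate 2 or carmofur replicate 3. Over all genes, 1231 calls in U251T were 708 with DESeq2 and 2078 with the block, and 0 calls in U251P were 19 without a filter. In U251T, 14 of the 43 genes had too few counts to test.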

Other observations

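Outside the genes chosen by rule, the second list held further called genes in U251T, named here after their values were seen. ITGB8, a beta chain that pairs with alpha-V (log2 fold change 1.14, SE 0.286), ACTA2, smooth muscle actin (1.11, SE 0.235), PALLD, the actin bundler palladin (1.07, SE 0.195), and FLNC, filamin C (1.02, SE 0.290), were higher with carmofur. CNN3, a calponin, was lower (-0.60, SE 0.173). Their adjusted p-values in edgeR were 0.00914, 0.00283, 0.000877, 0.0211 and 0.0234.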
